A study of Arabidopsis thaliana with 18 samples.

Results

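JAL22 (AT2G39310), AT1G52000 and AT5G03350 are 3 lectin genes of Arabidopsis thaliana, the first 2 of the jacalin-related kind and the last of the legume type. They were taken up because their levels differed between the wild type and the ethylene-insensitive line etr1-1 in these data. Each was read by 1 probe set (266988_at, 265053_at and 250942_at), so the genes make up 3 of the 22746 probe sets on the array that are not controls. The genotype difference chose them, so it is given below as a description, with no test. The tests concern the gibberellin spray, the times, the sets of arrays and other genes.

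Lectins are proteins that bind sugars. The jacalin-related lectins form a large family in Arabidopsis, and some of its members associate with PYK10, a beta-glucosidase stored in ER bodies, which are spindle-shaped compartments of the endoplasmic reticulum that are common in roots and seedlings and serve in defence. AT5G03350 is known as SAI-LLP1, a legume lectin-like protein whose transcript rises with salicylic acid, the hormone of defence against pathogens that feed on living tissue. Ethylene is perceived by receptors that hold the pathway off until the hormone binds, and the dominant etr1-1 allele gives a receptor that does not bind ethylene, so that the plant stays insensitive.

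The series is about cross-talk of gibberellin and ethylene in gene regulation, and holds 18 arrays of whole plants aged 14 days, 9 of wild-type Col-0 and 9 of etr1-1, the ecotype of both being given as Col. All plants grew in a growth room on MS/2 medium with sucrose and were sprayed with water or with GA4, a bioactive gibberellin, dissolved in water. In each genotype, water at 0 h (harvested at once), GA4 at 30 min and GA4 at 3 h had 1 array each, and water at 1 h and GA4 at 1 h had 3 arrays each. Array titles begin with DV001, which holds 10 arrays, 1 of each group, or DV002, which holds replicates 1 and 2 of the 4 groups at 1 h. No water control was sampled at 30 min or 3 h.

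The dose of GA4 and the number of plants behind an array are not given in the sources used here, and nothing states that replicates came from separate plants, so a p-value speaks only of the spread among these arrays, which may be technical. The titles do not call DV001 and DV002 batches, and they are named here as array sets. Values are the deposited intensities, whose trimmed mean lay between 100.007 and 100.008 on every array, with medians of 45.3 to 49.7. The arrays' average background ran from 79.51 to 106.3 in Col-0 and from 84.7 to 118.23 in etr1-1. It ran from 84.05 to 118.23 in DV001 and from 79.51 to 93.63 in DV002. In whole plants, fewer cells of a type and less RNA per cell cannot be told apart. The number of arrays limits the precision, and the levels of the 3 genes are not set against one another.

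JAL22 was lower in etr1-1, and AT1G52000 and AT5G03350 were higher in etr1-1, with no overlap between the 9 arrays of each genotype for any of the 3. Of all 15922 probe sets kept after a filter on low values, which all 3 genes passed, 0.389% were higher in etr1-1 without overlap and 0.433% were lower without overlap. These shares stand beside genes that were selected on the same difference, and nothing is read from the comparison.

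JAL22 encodes a jacalin-related lectin and had a narrow range in both genotypes. In Col-0 its intensity was 495.2 at 0 h, 575.6 at 30 min after GA4, 555.9, 552.6 and 476.4 at 1 h after water (replicates 1, 2 and 3), 510.0, 588.5 and 456.8 at 1 h after GA4, and 383.8 at 3 h after GA4. In etr1-1 it was 142.7 at 0 h, 196.8 at 30 min, 166.2, 155.2 and 158.3 at 1 h after water, 186.0, 175.6 and 162.5 at 1 h after GA4, and 125.8 at 3 h. The dimmest Col-0 array, at 3 h, still lay well above the brightest etr1-1 array, at 30 min. The lowest array of each genotype was that of 3 h after GA4. The means at 1 h after water were 528.3 ± 44.98 (SD, n = 3) in Col-0 and 159.9 ± 5.672 (SD, n = 3) in etr1-1.

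AT1G52000, the other jacalin-related lectin gene, lay near the middle of the probe sets in Col-0, at percentile 55.7 by mean log2 value. Its Col-0 intensity was 29.5 at 0 h, 51.6 at 30 min after GA4, 70.0, 79.1 and 43.7 at 1 h after water, 93.6, 96.3 and 28.2 at 1 h after GA4, and 62.3 at 3 h after GA4. In etr1-1 it was 167.4 at 0 h, 174.5 at 30 min, 175.6, 139.9 and 149.9 at 1 h after water, 129.1, 167.1 and 117.3 at 1 h after GA4, and 134.8 at 3 h. The spread was wider in the wild type, where the highest array read 3.41 times the lowest, against 1.50 times in etr1-1. The brightest Col-0 arrays were replicates 1 and 2 at 1 h after GA4, and they lay below the dimmest etr1-1 array, replicate 3 of the same spray and time. The means at 1 h after water were 64.3 ± 18.38 (SD, n = 3) in Col-0 and 155.1 ± 18.42 (SD, n = 3) in etr1-1.

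AT5G03350, the legume lectin-like gene, varied the most between arrays of one genotype. Its Col-0 intensity was 110.2 at 0 h, 108.6 at 30 min after GA4, 236.2, 207.5 and 191.1 at 1 h after water, 267.3, 261.1 and 95.4 at 1 h after GA4, and 68.6 at 3 h after GA4. In etr1-1 it was 357.2 at 0 h, 501.4 at 30 min, 619.1, 595.8 and 402.5 at 1 h after water, 638.2, 683.7 and 337.7 at 1 h after GA4, and 308.1 at 3 h. In both genotypes the 4 highest arrays were replicates 1 and 2 at 1 h after either spray, all of DV002, and the lowest was 3 h after GA4. The means at 1 h after water were 211.6 ± 22.83 (SD, n = 3) in Col-0 and 539.1 ± 118.9 (SD, n = 3) in etr1-1.

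**Figure D1:**
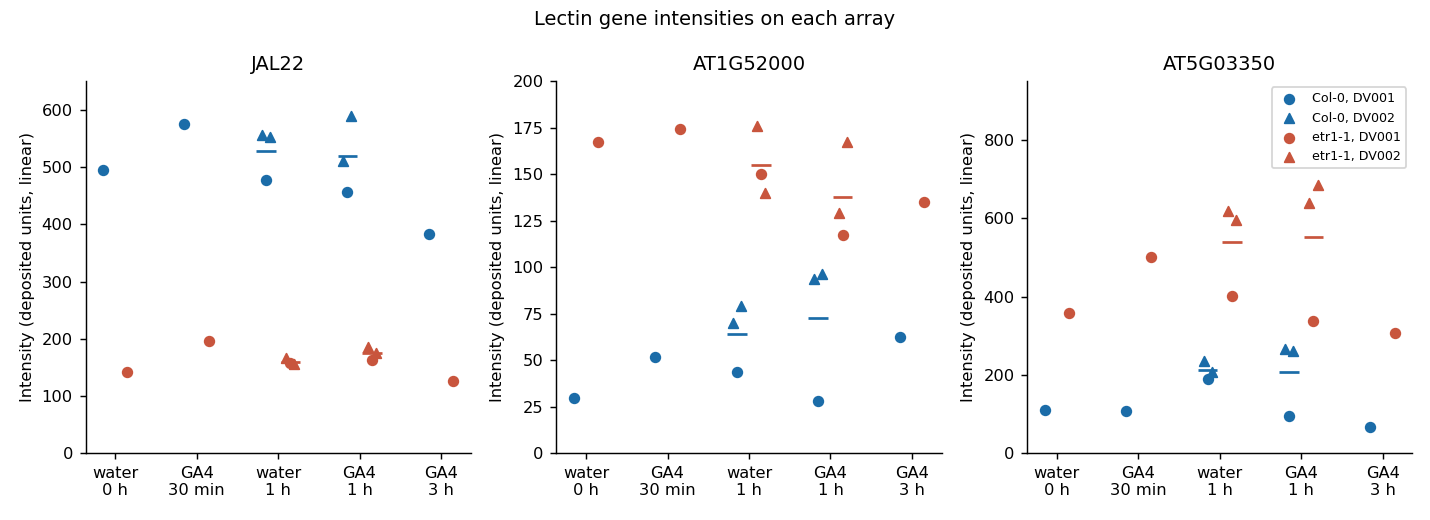
Deposited intensity (linear scale, arbitrary units) of JAL22, AT1G52000 and AT5G03350 on each of the 18 arrays, by spray and time, with 1 point per array; colour marks the genotype and the marker shape the array set DV001 or DV002, and a short line is the mean of 3 arrays. Col-0 lies above etr1-1 throughout for JAL22 (383.8 to 588.5 against 125.8 to 196.8), and etr1-1 lies above Col-0 throughout for the other genes.

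The size of the genotype difference was steadiest for JAL22. On the log2(value + 16) scale, which understates changes of dim probe sets, etr1-1 minus Col-0 over the 18 arrays was -1.55 ± 0.0599 (SE) for JAL22, 1.17 ± 0.169 for AT1G52000 and 1.51 ± 0.177 for AT5G03350. These values are the difference by which the genes were selected. Over the 9 pairs of arrays with the same spray, time and replicate number, the difference of JAL22 lay between -1.73 and -1.38 (SD 0.130). That of AT1G52000 lay between 0.40 and 2.01 (SD 0.518), and that of AT5G03350 between 1.01 and 2.05 (SD 0.337). As plain ratios of intensity, Col-0 was 2.74 to 3.56 times etr1-1 for JAL22, while etr1-1 was 1.38 to 5.67 times Col-0 for AT1G52000 and 2.11 to 4.62 times for AT5G03350. The pair with the largest gap was water at 0 h for AT1G52000, GA4 at 30 min for AT5G03350 and water at 1 h, replicate 2, for JAL22.

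For AT1G52000 the genotype difference was smaller in DV002. Its mean over the pairs was 1.50 in DV001 and 0.74 in DV002, against 1.65 and 1.33 for AT5G03350 and -1.51 and -1.61 for JAL22. No pair had the opposite sign in any of the 3 genes. This follows from the lack of overlap between the genotypes, so nothing further is read from it.

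**Figure D2:**
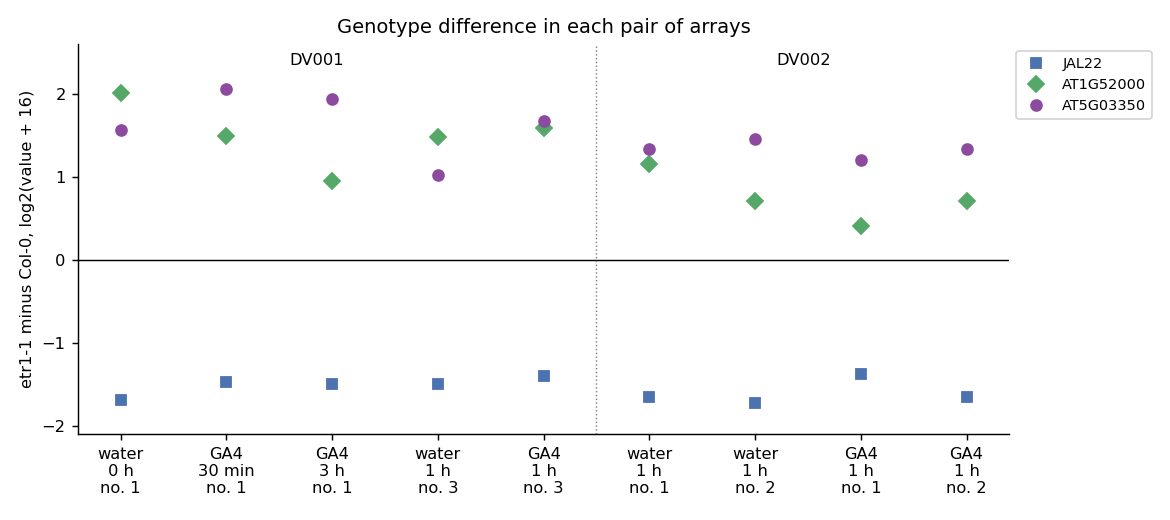
Difference etr1-1 minus Col-0 on the log2(value + 16) scale for each of the 9 pairs of arrays with the same spray, time and replicate number, with 1 point per gene and pair; the dotted line parts DV001 from DV002. JAL22 stays between -1.73 and -1.38, while AT1G52000 ranges from 0.40 to 2.01 and has its smallest differences in DV002.

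The comparison of GA4 with water at 1 h asks whether gibberellin changed the lectin genes within an hour, and it is independent of the genotype difference that chose them. None of the 3 genes passed the test in either genotype, and neither did any other probe set (0% of 15922 in Col-0 and 0% in etr1-1, limma with Benjamini-Hochberg adjustment). At an unadjusted p under 0.05 Col-0 had 97 probe sets and etr1-1 had 290, and none of the 3 genes was among them. Both counts are smaller than a share of 0.05 of the 15922 probe sets, which is expected where nothing differs. The fit left out the replicate number, by which arrays deviate together, so it was cautious. The lack of calls is therefore not evidence that GA4 had no effect.

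For JAL22 the difference GA4 minus water was -0.03 ± 0.118 (SE) on the log2 scale in Col-0 (95% interval -0.28 to 0.22). In etr1-1 it was 0.12 ± 0.118 (-0.14 to 0.37). GA4 was above water in 1 of 3 replicate pairs in Col-0 and in 3 of 3 in etr1-1. JAL22 had the tightest intervals of the 3 genes.

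For AT1G52000 the difference was 0.05 ± 0.296 in Col-0 (-0.59 to 0.69) and -0.16 ± 0.296 in etr1-1 (-0.80 to 0.48). GA4 was higher in 2 of 3 pairs of Col-0 and in 1 of 3 of etr1-1. In Col-0, replicates 1 and 2 were higher after GA4, by 0.35 and 0.24, and replicate 3, of DV001, was lower, at -0.43.

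For AT5G03350 the difference was -0.14 ± 0.332 in Col-0 (-0.85 to 0.58) and -0.0021 ± 0.332 in etr1-1 (-0.72 to 0.71). The replicate 3 pair, of DV001, had -0.89 in Col-0 and -0.24 in etr1-1. The replicate 1 and 2 pairs, of DV002, had 0.17 and 0.31 in Col-0 and 0.04 and 0.19 in etr1-1. The sign in the wild type therefore rests on 1 array: without GA4 at 1 h, replicate 3, the Col-0 difference was 0.30, and without the same replicate of etr1-1 that genotype's was 0.31.

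The design also allows a test of whether GA4 acted differently in the 2 genotypes, the question in the title of the series. The GA4 response of etr1-1 minus that of Col-0 was 0.15 ± 0.167 (SE) for JAL22, with a 95% interval of -0.21 to 0.50. It was -0.21 ± 0.419 (-1.12 to 0.69) for AT1G52000 and 0.14 ± 0.469 (-0.87 to 1.15) for AT5G03350. No gene passed (0% of 15922 probe sets by limma, and 111 by unadjusted p under 0.05), and the adjusted p of all 3 rounded to 1.00. The count of 111 is again smaller than a share of 0.05 of the probe sets, so this fit was cautious too. The intervals of AT1G52000 and AT5G03350 reach beyond 1 log2 unit on one side. With the replicate number as a block the SE was smaller, at 0.290 for AT1G52000 and 0.245 for AT5G03350, and no call resulted. For GA4 minus water within either genotype, the block gave an SE of 0.205 for AT1G52000 and 0.173 for AT5G03350, also without a call.

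Time after spraying was tested over both genotypes together, with the 1 array per genotype at 0 h, 30 min and 3 h set against the others. From GA4 at 1 h to GA4 at 3 h, JAL22 fell by 0.42 ± 0.104 (SE) on the log2 scale (adjusted p = 0.0246), among 3.62% of probe sets that fell. AT5G03350 had -1.02 ± 0.307 (95% interval -1.66 to -0.37) and missed the threshold (adjusted p = 0.0539). AT1G52000 had -0.04 ± 0.292 (adjusted p = 0.956). JAL22 was the single gene of the 3 that passed, and the larger change of AT5G03350 came with a larger error. As water was not sampled at 3 h, time and GA4 cannot be told apart in this step.

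The 3 h arrays belong to DV001, so the step was also taken against DV001 alone. JAL22 went from 456.8 to 383.8 in Col-0 (-0.24 on the log2 scale) and from 162.5 to 125.8 in etr1-1 (-0.33). With the array set as a term its step was -0.31 (adjusted p = 0.0987), and in DV001 alone -0.29 (adjusted p = 0.153), so the call was lost. AT5G03350 went from 95.4 to 68.6 in Col-0 (-0.40) and from 337.7 to 308.1 in etr1-1 (-0.13). Its step was -0.51 with the array set as a term (adjusted p = 0.241) and -0.26 in DV001 alone (adjusted p = 0.548), well under the -1.02 of the fit without the term. Within DV001 AT1G52000 was higher at 3 h, at 62.3 after 28.2 in Col-0 (0.82) and 134.8 after 117.3 in etr1-1 (0.18). Without the term, AT5G03350 passed when 1 of 3 arrays of DV001 was left out, at adjusted p = 0.0125 without Col-0 GA4 1 h replicate 3, 0.0180 without etr1-1 GA4 1 h replicate 3 and 0.0425 without etr1-1 water 1 h replicate 3.

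The first 30 min after GA4, against water at 0 h, gave a JAL22 difference of 0.32 ± 0.127 (unadjusted p = 0.0226, adjusted p = 0.454). Both genotypes were higher at 30 min, from 495.2 to 575.6 in Col-0 (0.21) and from 142.7 to 196.8 in etr1-1 (0.42). AT1G52000 had 0.31 ± 0.358 (adjusted p = 0.954) and AT5G03350 0.23 ± 0.376 (adjusted p = 0.978). None of the genes passed, where 1.36% of all probe sets did. Since water was not sampled at 30 min, spray and time cannot be told apart in this step.

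Between 0 h and 1 h after water, AT5G03350 differed by 0.70 ± 0.307 (unadjusted p = 0.0358, adjusted p = 0.203). With the array set as a term it was 0.19 (adjusted p = 0.778), and in DV001 alone 0.44 (adjusted p = 0.344). Within DV001 it went from 110.2 to 191.1 in Col-0 (0.71) and from 357.2 to 402.5 in etr1-1 (0.17). JAL22 had 0.12 ± 0.104 (adjusted p = 0.545) and AT1G52000 0.34 ± 0.292 (adjusted p = 0.530), and with the array set as a term the AT1G52000 value turned to -0.04. None of the 3 passed, where 4.26% of all probe sets did.

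The array sets themselves differed in AT1G52000 and AT5G03350, a test that was added after the values had been seen. At 1 h, over all 4 groups, DV002 was above DV001 by 0.76 ± 0.132 (SE) log2 units for AT5G03350 (adjusted p = 0.00261) and by 0.57 ± 0.155 for AT1G52000 (adjusted p = 0.0227). JAL22 had 0.16 ± 0.0719 (adjusted p = 0.143). Both calls fell among 9.73% of probe sets that were higher in DV002, so many other probe sets moved between the sets too. The test treats the 12 arrays as independent, though they carry 3 replicate numbers, 2 in DV002 and 1 in DV001, and arrays of the same number deviate together. The p-values of this step, here and within each genotype, are therefore too small.

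For AT5G03350 the step between the sets passed the test in each genotype. In Col-0 at 1 h the 4 DV002 arrays read 207.5 to 267.3 and the 2 DV001 arrays 95.4 and 191.1. In etr1-1 the 4 DV002 arrays read 595.8 to 683.7 and the DV001 arrays 337.7 and 402.5. The sets did not overlap in either genotype, and in the same direction 17.5% of all probe sets did not overlap in the wild type and 15.8% in etr1-1. The step was 0.76 ± 0.194 in Col-0 (adjusted p = 0.0423, with 2.95% of probe sets called higher) and 0.76 ± 0.194 in etr1-1 (adjusted p = 0.0433, with 3.35% called higher). The difference of the steps was -0.01 ± 0.274 (95% interval -0.60 to 0.59).

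For AT1G52000 the step passed in Col-0 and not in etr1-1, and the difference of the steps did not pass. In Col-0 the DV002 arrays read 70.0 to 96.3 and the DV001 arrays 28.2 and 43.7, with no overlap, and the step was 0.96 ± 0.165 (adjusted p = 0.0104). In etr1-1 the DV002 arrays read 129.1 to 175.6 and the DV001 arrays 117.3 and 149.9, which overlap, and the step was 0.17 ± 0.165 (adjusted p = 0.562). The difference of the steps, etr1-1 minus Col-0, was -0.79 ± 0.233 (95% interval -1.30 to -0.28, unadjusted p = 0.00522), with adjusted p = 0.463 over all probe sets. No probe set passed that test (0% of 15922 by limma, and 1232 by unadjusted p under 0.05). The arrays' summed level of 3 salicylic acid response genes, SAG101, UGT76B1 and GRX480, ran from 205.1 to 255.4 in DV001 at 1 h and from 204 to 351 in DV002, and its part in these steps was not tested.

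**Figure D3:**
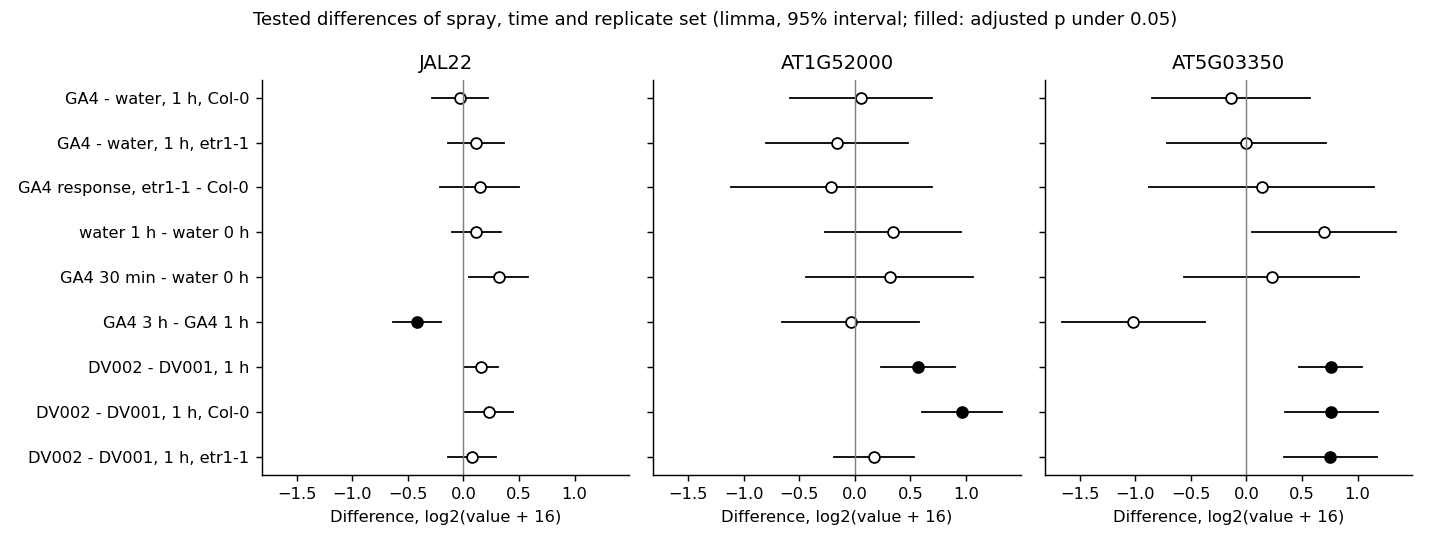
Log2 differences of the 3 lectin genes in the comparisons that the choice of genes did not use, with 95% intervals from limma and filled points where the adjusted p was under 0.05. The GA4 differences at 1 h straddle 0 for every gene, and the filled points are the fall of JAL22 from 1 h to 3 h after GA4 (-0.42, lost with the array set as a term) and the steps from DV001 to DV002 of AT1G52000 and AT5G03350.

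Other lectin genes and the genes around these pathways were listed to show what else differed between the genotypes. The genotype test was run on them. The lists were drawn up with earlier results of these data known, so their p-values, calls and counts are not independent of these data. Of 45 other listed genes with a named probe set, 32 passed the filter, and 2 were higher and 6 lower in etr1-1, against 3.28% and 3.34% of all probe sets.

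Among the jacalin-related lectins, 3 other genes with a JAL symbol were tested. Of these 2 were called lower in etr1-1, beside 3.34% of all probe sets. JAL33, a lectin of the PYK10 complex, fell by 0.66 ± 0.0734 (SE) on the log2 scale (adjusted p = 2.13e-05). Its intensity ran from 620.5 to 1170 in Col-0 (median 1052) and from 474.3 to 774.4 in etr1-1 (median 667.1), so the ranges overlapped. JAL34, which also associates with PYK10, fell by 0.25 ± 0.0563 (adjusted p = 0.0116).

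JAL23, which lies 2 genes after JAL22 on the chromosome, was dim and had 0.22 ± 0.0884 (adjusted p = 0.163). Its intensity ran from 12.3 to 26.2 in Col-0 and from 15.5 to 30.1 in etr1-1. The median of these 3 JAL genes was -0.25, beside 0.01 over all probe sets.

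Of the 42 loci on a further jacalin list, drawn up by hand, 17 besides the selected lectin genes had a named probe set. As the tables used do not describe these loci, they are named by locus only. Of these 8 were tested, none was higher and 2 were lower in etr1-1, with a list median of -0.18. Of all probe sets 3.28% were called higher and 3.34% lower. AT1G52100 fell by 0.93 ± 0.135 (adjusted p = 3.03e-04), with intensities of 41.4 to 76.6 in Col-0 and 6.9 to 39.4 in etr1-1 and no overlap. AT1G33790 fell by 0.47 ± 0.0926 (adjusted p = 0.00409). AT1G52050, the nearest tested locus after AT1G52000 in gene order, had -0.12 ± 0.142 (adjusted p = 0.705). Over both lists 11 loci were tested, of which 4 were called lower and none higher in etr1-1, beside the same shares of all probe sets. JAL22 and AT1G52000, selected on this difference, are not counted among them. The lists were made with earlier results known, so nothing is read from these counts about the family.

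In the legume type, 4 of 6 measured loci beside AT5G03350 were tested and none passed, with a list median of 0.02. AT3G16530 had -0.31 ± 0.0979 (adjusted p = 0.0683) and AT1G53070 had 0.18 ± 0.0987 (adjusted p = 0.317). The tables used do not describe these loci either.

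Of the 20 loci on the ER body list, 7 besides the selected lectin genes had a named probe set. They include JAL23, JAL33 and JAL34, already counted above. Of these 7, 6 were tested, with 1 higher and 2 lower in etr1-1, beside 3.28% and 3.34% of all probe sets. NAI1, the transcription factor required for ER bodies, was higher by 0.61 ± 0.0926 (adjusted p = 4.40e-04), with intensities of 50.1 to 90.6 in Col-0 and 93.9 to 155.6 in etr1-1 and no overlap. The lower ones were JAL33 and JAL34, the same calls as among the JAL genes. PYK10, the beta-glucosidase itself, had 0.05 ± 0.0518 (adjusted p = 0.659) and NAI2, an ER body component, had -0.12 ± 0.0591 (adjusted p = 0.286).

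Of the 25 loci on the salicylic acid response list, 3 besides the lectin genes had a named probe set. GRX480, a glutaredoxin that salicylic acid induces, was higher in etr1-1 by 0.57 ± 0.111 (adjusted p = 0.00409). UGT76B1 had -0.20 ± 0.101 (adjusted p = 0.289) and SAG101 0.03 ± 0.0989 (adjusted p = 0.916), and no others were tested. THI2.1, a thionin gene induced by jasmonate, had 0.27 ± 0.095 (adjusted p = 0.0972).

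Of the 18 loci on the ethylene list, 3 had a named probe set. ARL, a gene of cell expansion related to ARGOS, fell by 1.94 ± 0.111 (adjusted p = 3.52e-09). RTE1, a membrane protein that associates with the ETR1 receptor, had -0.22 ± 0.0924 (adjusted p = 0.193), and EIN3, a transcription factor central to ethylene responses, had -0.01 ± 0.0821 (adjusted p = 0.982).

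Because ER bodies and many lectins are found in roots, root and shoot markers were set beside these values. The summed level of 6 root markers ran from 3222.3 to 3787.4 in Col-0 (median 3376.8) and from 3128.4 to 3825.3 in etr1-1 (median 3525.4). Most of this sum is PYK10, itself 1 of the 6, with medians of 2626 in Col-0 and 2610 in etr1-1. The sum therefore says little of the other markers, and the 6 differences ran from -0.55 to 0.25. Of the 6 markers 1 was called, AT4G11290, which fell by 0.55 ± 0.111 (adjusted p = 0.00518), beside 3.34% of all probe sets called lower. The sum of the shoot markers RCA and LHCB4.1 ran from 4751 to 7001.6 in Col-0 and from 5500.1 to 6185.3 in etr1-1, and neither was called. Both sums overlapped between the genotypes, and their part in the lectin differences was not tested.

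**Figure D4:**
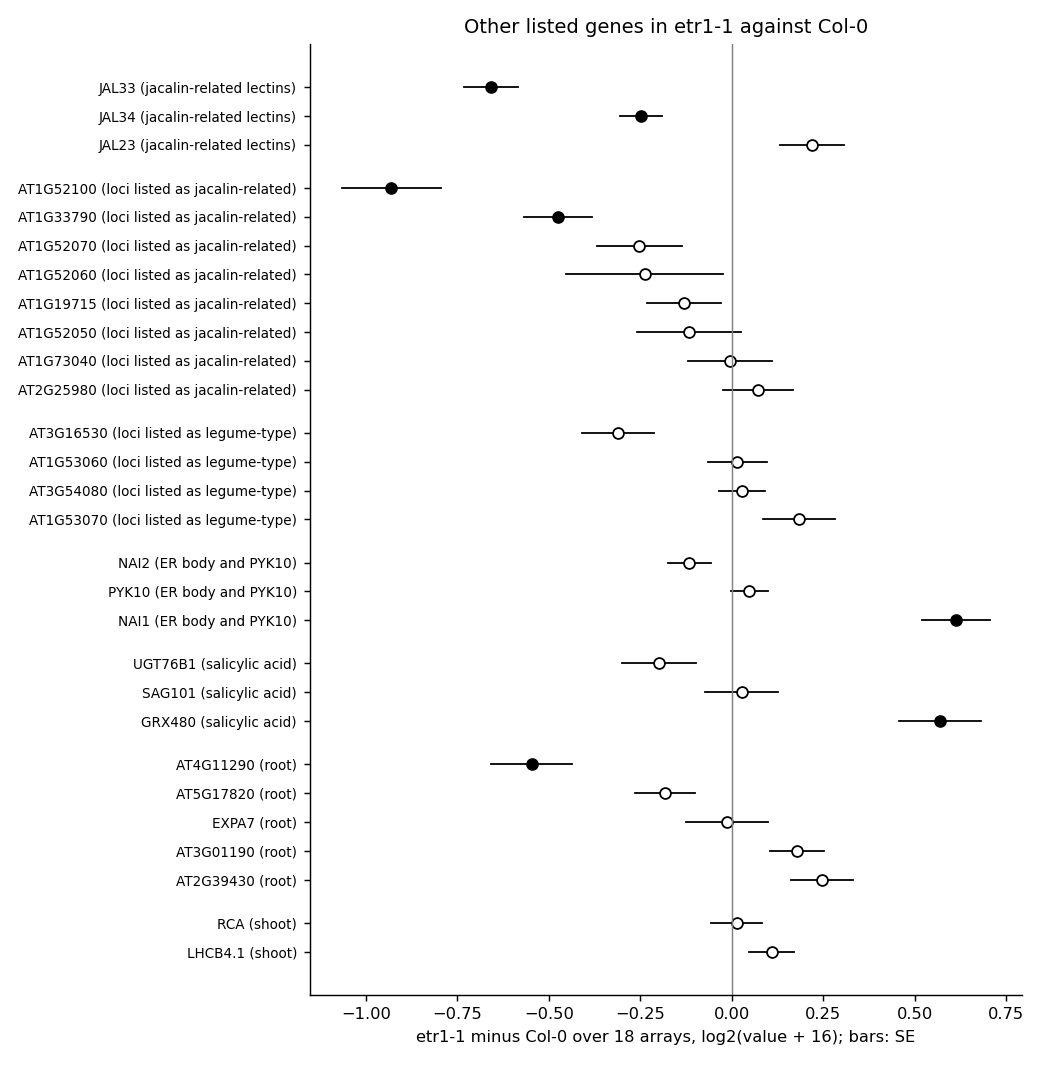
Difference etr1-1 minus Col-0 on the log2(value + 16) scale over the 18 arrays for the tested genes of the lectin, ER body, salicylic acid, root and shoot lists, with bars for the SE and filled points where the adjusted p was under 0.05. NAI1 (0.61) and GRX480 (0.57) are called on the higher side, and JAL33, JAL34, AT1G52100, AT1G33790 and AT4G11290 on the lower side.

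Some of the listed genes also moved with time. From GA4 at 1 h to GA4 at 3 h, 5 of the 32 fell and none rose, where 3.62% of all probe sets fell. JAL33 fell by 0.65 ± 0.127 (adjusted p = 0.00832) and passed also with the array set as a term, at -0.63 (adjusted p = 0.0204). UGT76B1 fell by 0.60 ± 0.175 (adjusted p = 0.0493) and passed with the term too, at -0.73 (adjusted p = 0.0359). GRX480 fell by 0.77 ± 0.192 (adjusted p = 0.0254). With the term GRX480 had -0.64 (adjusted p = 0.105), while it passed in DV001 alone at -0.68 (adjusted p = 0.0266). AT1G73040 fell by 0.76 ± 0.198 (adjusted p = 0.0317) and passed with the term too, at -0.99 (adjusted p = 0.00679). AT1G33790 fell by 0.71 ± 0.160 (adjusted p = 0.0171) and had -0.64 with the term (adjusted p = 0.0584).

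In the earlier steps 1 listed gene passed in each. GRX480 rose by 1.49 ± 0.235 (adjusted p = 0.00179) from water at 0 h to GA4 at 30 min, from 32.1 to 111.4 in Col-0 and from 41.2 to 153.5 in etr1-1, among 1.27% of probe sets that rose. AT3G16530 rose by 1.08 ± 0.170 (adjusted p = 0.00250) between 0 h and 1 h after water, among 2.98% of probe sets that rose.

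The genes whose pattern was most like each lectin gene were ranked by Pearson correlation of log2(value + 16) over the 18 arrays among 8766 filtered probe sets with 1 named gene. These correlations describe the arrays and include the genotype gap that chose the genes. They were computed a second time after each genotype's mean had been subtracted, which keeps the spread that arrays of one genotype share through array set, time and labelling.

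Most like JAL22 were ARL (r = 0.976), AT4G17840 (0.962), AT5G44580 (0.957), AT2G39980 (0.948) and AT3G20370 (0.946). Within genotypes its nearest were ZCF37 (0.874), AT3G25600 (0.856), ATCRT1 (0.853), AT3G15810 (0.846) and AT2G38640 (0.838). The 2 lists of JAL22 share no gene.

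Most like AT1G52000 were AT5G02940 (0.905), AT2G38800 (0.895), AT2G43530 (0.884), AT5G03350 (0.878) and AT3G28220 (0.875). Within genotypes they were AT2G43530 (0.789), AT2G16710 (0.773), AT2G38800 (0.770), AT5G55960 (0.769) and AT4G12770 (0.766), so AT2G43530 and AT2G38800 stood in both lists.

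Most like AT5G03350 were AT1G70810 (0.949), AT3G28220 (0.937), AT5G02940 (0.936), PDF1.4 (0.912) and AT1G52820 (0.911), with AT1G52000 at rank 17. Within genotypes they were AT1G51860 (0.918), AT1G27290 (0.902), AT3G02460 (0.890), AT2G33390 (0.887) and AT1G18470 (0.887). AT5G02940 and AT3G28220 were among the 5 nearest of both AT1G52000 and AT5G03350.

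Between the lectin genes themselves, the correlation over all arrays was -0.79 for JAL22 with AT1G52000 and -0.72 for JAL22 with AT5G03350. Within genotypes both turned positive, at 0.33 and 0.67, and AT1G52000 with AT5G03350 had 0.59. JAL22 and AT1G52000 were thus the least alike within genotypes. Each genotype's 9 arrays are 5 of DV001 and 4 of DV002, so these values also include the steps between the array sets.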

How the data were processed

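Biotin-labelled cRNA of whole plants was hybridised to 18 Affymetrix ATH1 arrays. The deposited table holds linear intensities, with 1 value per probe set, as the authors deposited them. Their trimmed means are the same on every array, from which a scaling before deposit is inferred, and the software is not given in the labels or files used here. From them log2(value + 16) was computed, 64 of 22810 probe sets were left out as controls, and those in the lowest 30% by mean log2 value were filtered out, so that 15922 were tested. Of the probe sets that are not controls, 13513 named 1 gene in the platform annotation, 503 several and 8730 were not listed there, and 13436 were matched to RefSeq (TAIR10.1), whose gene order gave the neighbours.

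Tests were fitted across all kept probe sets in limma 3.58.1 (R 4.3.3; lmFit, eBayes with an intensity trend) with Benjamini-Hochberg adjustment and a threshold of 0.05, and the scripts were tested on simulated data. Tests at 1 h used 12 arrays with a term per group. The genotype comparison used 18 arrays with spray and time as a term, and time steps used 18 arrays with genotype as a term too. The replicate numbers of the labels pair the arrays: the 18 same-number pairs at 1 h correlated in their deviations from group means at r = 0.127 to 0.70, against -0.52 to 0.20 for the 36 other pairs. The numbers follow the array sets in part.

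The genes and gene lists were chosen with earlier results of these data known. Named were the 3 lectin genes, up to 4 called genes per list (or the 2 with the smallest p where none was called), the nearest 3 named genes on each side and the 5 most correlated. Alternatives were another offset, quantile normalization, no filter, no trend, the replicate block, the array set as a term or alone, and leaving out each array at 1 h. Sequences are not used here, and coordinates served only to give the gene order.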

Additional observations from a re-analysis of the deposited data

How the results depend on the processing

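The replicate block was run for the GA4 comparisons at 1 h, where it brought no call on a lectin gene (for JAL22 in Col-0, -0.03 at adjusted p = 0.9986), and for the genotype comparison, where the called listed genes kept their calls. It was not run for the steps in time or between the array sets. The genotype differences kept their sign under every alternative run. For the 3 lectin genes, selected on this difference and without overlap, that could hardly have come out otherwise. Reversals came in steps whose intervals include 0. GA4 minus water in Col-0 was 0.002197 for JAL22 with quantile normalization, and for AT5G03350 in DV002 alone it was 0.24 in Col-0, 0.12 in etr1-1 and -0.12 as their difference. Water at 1 h minus 0 h of AT1G52000 was -0.0363 with the array set as a term, and its GA4 step from 1 h to 3 h was 0.34 with that term and 0.50 in DV001 alone. The same step of JAL22 lost its call, at -0.31 with the term and -0.29 in DV001 alone. Listed genes called higher in etr1-1 went from 2 to 0 in DV002 alone, a setting added after the values were seen, where fewer arrays are fitted. There NAI1 had 0.52, GRX480 0.61, JAL34 -0.22 and AT4G11290 -0.46, none of which passed and all of which had similar sizes over the 18 arrays. AT1G33790 had -0.35 in DV001 alone (adjusted p = 0.0959).

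Leaving out each array at 1 h moved the GA4 difference in Col-0 from -0.12 to 0.0544 for JAL22, from -0.18 to 0.49 for AT1G52000 and from -0.37 to 0.30 for AT5G03350, and that of AT5G03350 in etr1-1 from -0.19 to 0.31. The genotype difference in GA4 response ran from -0.66 to 0.0165 for AT1G52000 and from -0.31 to 0.45 for AT5G03350. The GA4 step from 1 h to 3 h ran from -0.20 to 0.0892 for AT1G52000 and from -1.20 to -0.91 for AT5G03350, where 3 of the 12 omissions brought a call. That step of AT5G03350 was -0.51 with the array set as a term and -0.26 in DV001 alone, and its step from 0 h to 1 h after water was 0.19 with the term. The causes were not tested. With 1 array per group at 0 h, 30 min and 3 h, array and time cannot be told apart within a genotype, and AT1G52000 in Col-0 was near the arrays' median intensity.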

Other observations

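The genes beside each lectin gene on its chromosome were read for the genotype difference as well, in gene order of the RefSeq table. Of the 18 nearest named neighbours, 11 passed the filter and 1 was called, higher in etr1-1, where 3.28% of all probe sets were called higher and 3.34% lower, so a single call is near that share. IDH-V, a subunit of the mitochondrial NAD-dependent isocitrate dehydrogenase that lies 8 genes before AT5G03350, was higher in etr1-1 by 0.25 ± 0.0598 (SE) on the log2 scale (adjusted p = 0.0181, limma), with intensities of 460.6 to 588.4 in Col-0 and 540.5 to 695.8 in etr1-1. AT5G03345, directly before AT5G03350, had 0.26 ± 0.104 (adjusted p = 0.152). The nearest tested neighbours of JAL22 were AT2G39280, with -0.20 ± 0.102 (adjusted p = 0.298), and JAL23. Beside AT1G52000, AT1G51980 had 0.08 ± 0.0624 (adjusted p = 0.530).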
